A study of Mus musculus with 4 samples.

Results

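A set of 9 genes was followed across the cells of mouse prostate tumours: Rdh12, Cpm, Gpr55, Slc24a3, Ppfia4, Dscaml1, Spata7, Plac8 and AA467197, out of 32285 genes in the count files. They were selected on their measured levels in these same libraries, as genes with large differences between 2 tumour genotypes, so every difference between the genotypes in these genes is given as a description with no test. They had been grouped as differences shared across cell classes, which the counts here describe but cannot test. Spata7 differed by 4-fold or more, without overlap between libraries, in 3 of 3 classes with enough counts for a fit, and Ppfia4 and Dscaml1 did in 2 of 2 each. The other genes did so in 1 or 2 of the 2 to 6 classes fitted. Slc24a3, Plac8 and AA467197 differed in opposite directions in different classes. The share of all genes that did this is not given here, and 29.7% to 37.4% of all genes had no overlap in a single class. Opposite directions are therefore not read as a trait of these genes. Spata7, Ppfia4 and Dscaml1 entered those fits through the genotype where they are high, as did Gpr55 and Slc24a3 in neutrophil-like cells. Counts of classes for these genes therefore do not show that the differences are general. Among all genes, 0.491% to 1.37% differed by 4-fold or more without overlap in the classes concerned. In TKO a few cells held most of the Spata7 UMIs. A class with too few counts of a gene shows nothing either way. The selection did not use which genes lie beside each gene or what its promoter holds.

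The tumours came from mice with a tamoxifen-inducible Cre expressed from Nkx3.1 (Nkx3.1CreERT2), a prostate epithelial driver, and floxed alleles that include Smad4 (DKO). The second genotype carries the same alleles plus floxed Pygo2 (TKO). Each genotype has 2 libraries, all samples were tagged with hashtag antibodies and combined in a single droplet load, and the series text mentions 10 and 17 weeks after tamoxifen without a label that ties a library to either time. Nothing in the labels states that replicates are different mice, so the spread within a genotype may be technical.

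DKO replicates 1 and 2 gave 617 and 759 cells and TKO replicates 1 and 2 gave 1208 and 797, with 9167770 to 18360201 unique molecular identifiers (UMIs, counted transcripts) per library. No barcode was shared between libraries, and in all retained cells the hashtag of the labelled sample was the most abundant. Both would follow from assigning the pooled cells to samples by hashtag, so neither is a separate check of the labels. Pygo2 itself was counted at 6.98 and 8.59 CPM (UMIs scaled to a common total) in DKO, from 64 and 126 UMIs, and at 9.91 and 9.52 CPM in TKO, from 182 and 100 UMIs. The TKO level was thus not lower. The place of the 3′ tag relative to the deleted part is not given in the sources used here. The value therefore does not check the labels, and the recombining cells are epithelial while most cells here are immune. Cells were grouped into lymphoid-like (T, NK and innate lymphoid markers), dendritic-like, macrophage- and monocyte-like, neutrophil-like, epithelial-like and fibroblast-like classes, each with at least 20 cells in every library.

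By function the 9 genes have little in common. Rdh12 encodes a retinol dehydrogenase and Cpm a membrane-anchored carboxypeptidase that trims basic residues from the ends of peptides. Gpr55 is a G protein-coupled receptor for lysophosphatidylinositol, and Slc24a3 a potassium-dependent sodium-calcium exchanger. Ppfia4 is a liprin scaffold protein, Dscaml1 an immunoglobulin-type adhesion protein known from neurons, and Spata7 a protein of the photoreceptor connecting cilium. Plac8 is a small cysteine-rich protein of immune cells, and AA467197 a small relative of the respiratory chain protein Ndufa4.

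Promoters of 3 of the genes are shown first, chosen by their differences. Rdh12 is the gene with the largest neutrophil-like difference. Gpr55 and Ppfia4 are 2 of the 3 genes that were lower in TKO in dendritic-like cells, among those with enough counts there. The sequences are RefSeq promoters on GRCm38.p6, 250 bases before to 50 after the start, and capitals mark GAGGAA (the core bound by PU.1-type ETS factors) and GGGCGG (the GC box), searched on both strands, where a match on the other strand reads TTCCTC or CCGCCC. The Rdh12 sequence is chr12:79208663-79208962 on the plus strand, the Gpr55 sequence chr1:85961006-85961305 on the minus strand, and the Ppfia4 sequence chr1:134344667-134344966 on the minus strand.
Rdh12: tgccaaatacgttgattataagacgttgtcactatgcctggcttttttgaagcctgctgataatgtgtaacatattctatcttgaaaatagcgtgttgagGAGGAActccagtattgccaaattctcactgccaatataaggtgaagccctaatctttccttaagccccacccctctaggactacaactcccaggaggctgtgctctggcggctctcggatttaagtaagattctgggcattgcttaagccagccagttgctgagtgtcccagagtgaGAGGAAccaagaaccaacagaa
Gpr55: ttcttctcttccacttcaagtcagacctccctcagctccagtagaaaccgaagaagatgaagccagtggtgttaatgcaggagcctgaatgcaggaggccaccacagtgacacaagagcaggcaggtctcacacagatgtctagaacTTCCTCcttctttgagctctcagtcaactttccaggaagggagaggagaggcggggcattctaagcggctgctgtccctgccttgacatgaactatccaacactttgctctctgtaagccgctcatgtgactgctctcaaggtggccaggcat
Ppfia4: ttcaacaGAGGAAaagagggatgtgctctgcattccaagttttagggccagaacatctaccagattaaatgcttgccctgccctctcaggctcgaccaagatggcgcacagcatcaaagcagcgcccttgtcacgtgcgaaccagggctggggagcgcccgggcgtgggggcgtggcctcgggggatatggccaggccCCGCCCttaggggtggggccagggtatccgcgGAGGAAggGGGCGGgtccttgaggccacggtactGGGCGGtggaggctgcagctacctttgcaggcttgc
Rdh12 and Gpr55 hold 5 and 4 CG pairs in these 300 bases and no GC box. The Ppfia4 promoter shown, 1 of 2, holds 16 CG pairs and 3 GC boxes, and lies outside the gene span given below. The other Ppfia4 promoter (chr1:134332879-134333178) covers the start of that span on the minus strand. It holds 7 CG pairs, 1 GC box and no GAGGAA. The 8 genes with an entry have 11 promoters, of which 4 (36.4%; of Rdh12, Gpr55, Ppfia4 and Plac8) hold GAGGAA and 5 (45.5%) hold GGGCGG, against 28.3% and 35.7% of all 32851 promoters of this length. The Cpm and Slc24a3 promoters are the most CG-rich, with 37 and 43 CG pairs, and the median promoter has 7. These are letters in a window and were not read as binding sites. Dscaml1 is named only.

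**Figure D1:**
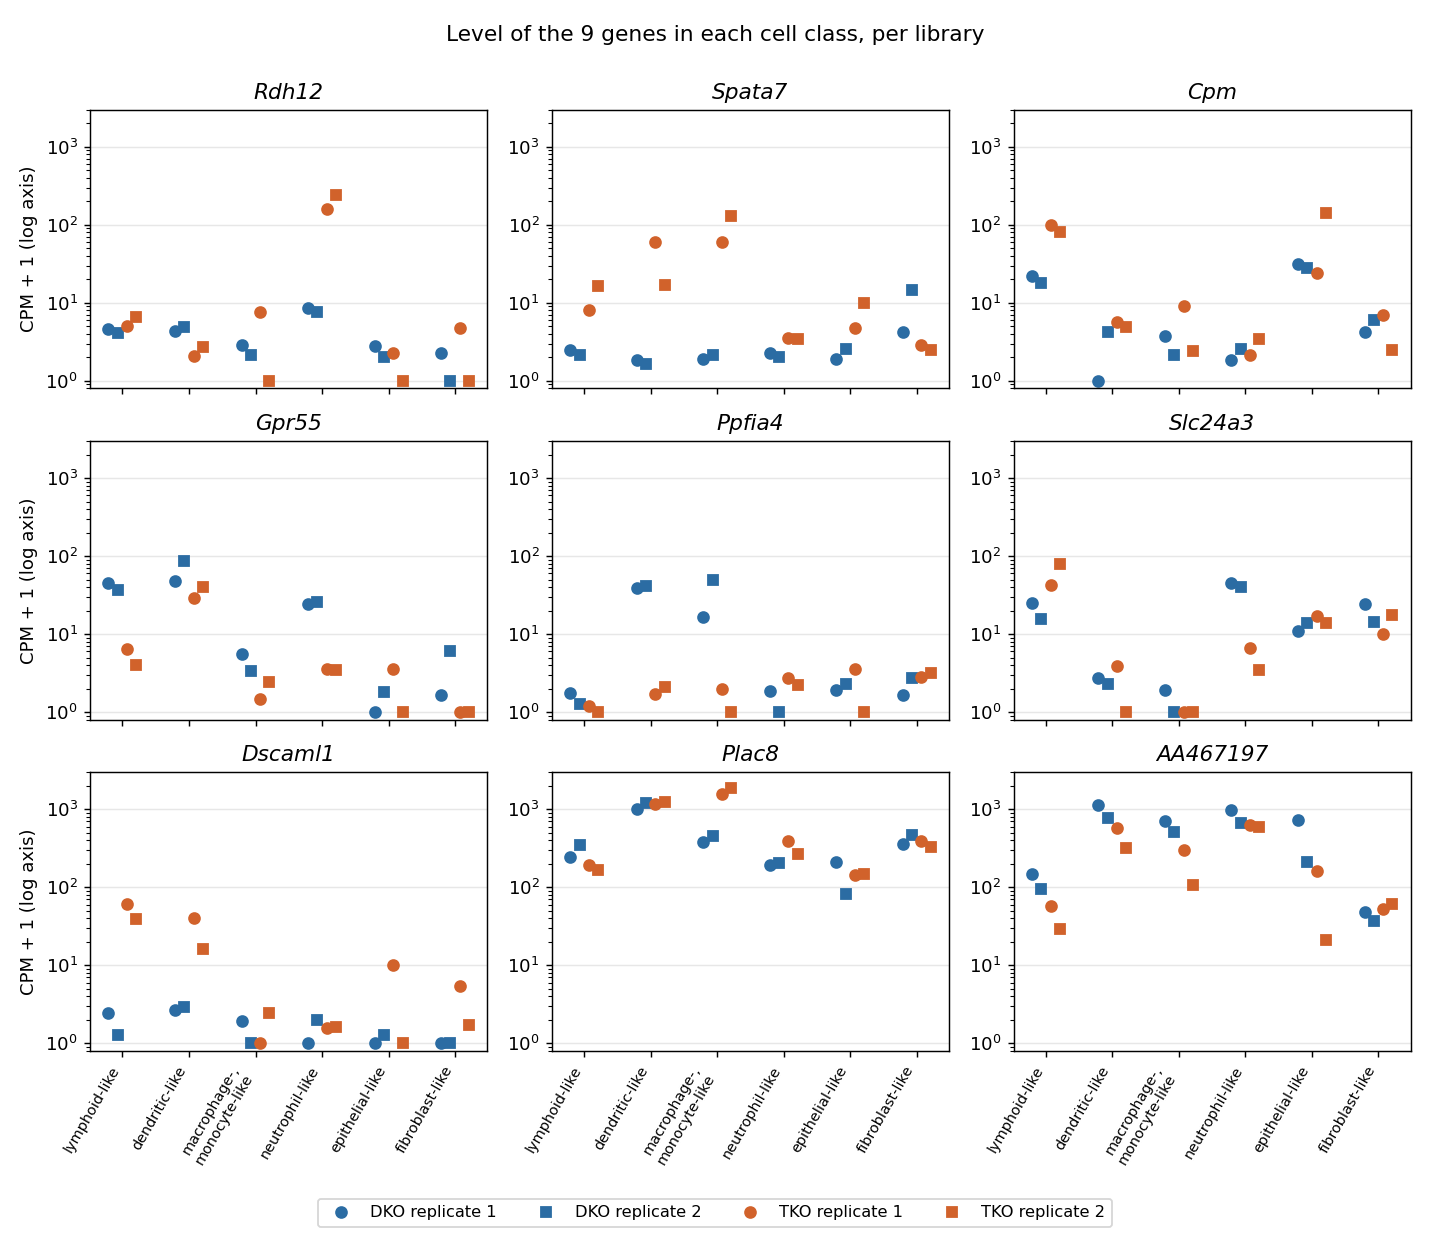
Level of each gene in CPM + 1 (log axis) in the 6 cell classes (horizontal axis), with 1 point per library, DKO in blue and TKO in orange. Rdh12 separates in neutrophil-like cells, at 157 and 237 CPM in TKO against 7.63 and 6.66 in DKO, while Plac8 and AA467197 are present in all 6 classes and Plac8 overlaps in dendritic-like cells.

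Each class was compared with the mean of the other classes within libraries, over both genotypes (edgeR quasi-likelihood test, Benjamini-Hochberg over all genes and classes). For the 9 genes this is a description, since it uses the same libraries as the selection and a gene high in 1 genotype can pass through that genotype. In 17 gene and class pairs the class was higher. The background was high too: 28.5% of all tested genes were higher in the lymphoid-like class, 23.9% in dendritic-like, 29.9% in epithelial-like, 35.6% in fibroblast-like, 21.2% in macrophage- and monocyte-like and 29.4% in neutrophil-like cells. None of the 9 was higher in fibroblast-like cells. The largest of the 17 was Rdh12 in neutrophil-like cells, at a log2 difference of 5.35 ± 0.50 (SE). In DKO alone Rdh12 stood at 7.63 and 6.66 CPM there and at 3.41 and 3.89 in dendritic-like cells. Gpr55 was highest in dendritic-like cells (4.12 ± 0.41), with smaller excesses in the lymphoid-like (1.70 ± 0.43) and neutrophil-like (1.64 ± 0.47) classes. Cpm was high in both the lymphoid-like (2.95 ± 0.33) and the epithelial-like class.

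The DKO and TKO libraries were then set side by side class by class. Of 54 gene and class pairs, 30 had enough counts to enter the fit, and in 24 of those the DKO and TKO libraries did not overlap. In 14 pairs the means also differed by 4-fold or more. The genes were chosen for such differences, so these counts describe the choice. In the lymphoid-like class 8 of the 9 genes could be fitted and 4 passed the 4-fold mark, beside 34.3% of all genes without overlap and 0.491% also at 4-fold. The other classes gave 3 of 6 in dendritic-like (36.4% and 0.566%), 1 of 4 in epithelial-like (36.8% and 1.37%), 0 of 3 in fibroblast-like (31.9% and 0.637%), 3 of 4 in macrophage- and monocyte-like (37.4% and 0.767%) and 3 of 5 in neutrophil-like cells (29.7% and 0.53%). A gene that passed the filter through the genotype where it is high had to differ.

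**Figure D2:**
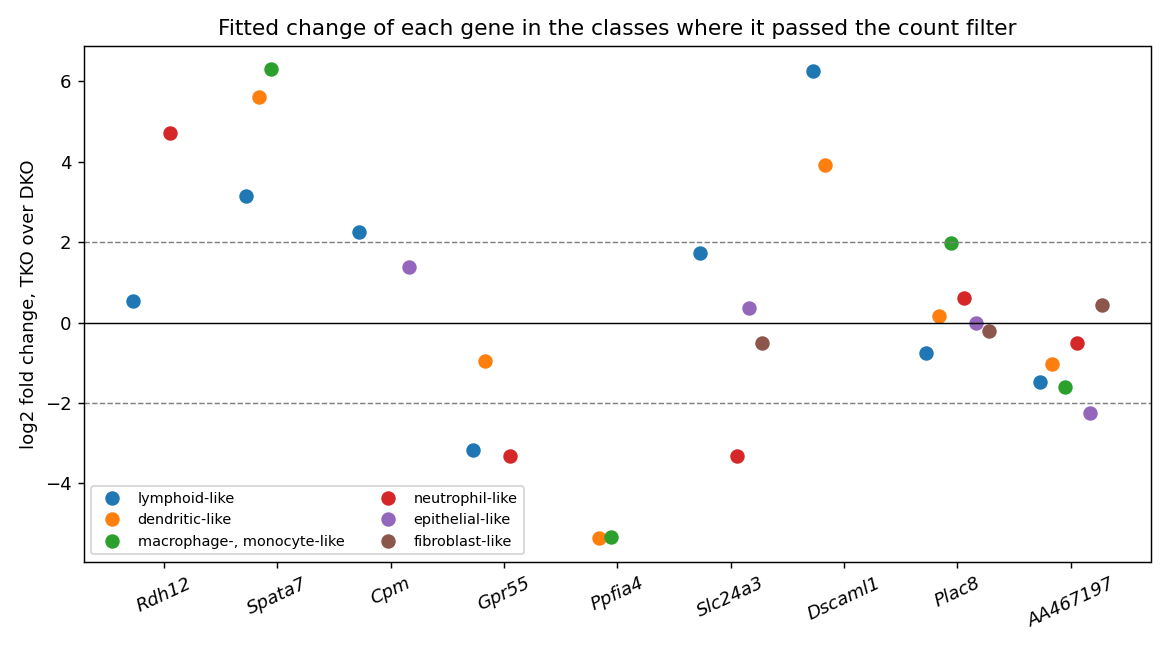
Fitted log2 fold change, TKO over DKO, of each gene (horizontal axis) in the classes where it passed the count filter, 1 coloured point per class; dashed lines mark 4-fold. Slc24a3, Plac8 and AA467197 have points on both sides of 0.

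Rdh12 (GRCm38 chr12:79208914-79222665, plus strand) differed in neutrophil-like cells. DKO replicates 1 and 2 held 18 and 13 UMIs (7.63 and 6.66 CPM) and TKO replicates 1 and 2 held 550 and 391 (157 and 237 CPM), a 27.6-fold difference of the means. A class sum cannot tell fewer expressing cells from less RNA per cell, so shares of cells are given too (2.93% and 4.26% of DKO and 21.4% and 32.7% of TKO cells). Clusters singled out for a gene were chosen after their values were seen. In the lymphoid-like class it stood at 3.67, 3.11, 4.09 and 5.53 CPM, near the level of the other classes. Within neutrophil-like cells the difference was present in all 4 clusters and was largest in the cluster led by Retnlg, Slc2a3 and Stfa2l1. There 1 of 73 and 7 of 82 DKO cells and 34 of 44 and 45 of 71 TKO cells had an Rdh12 UMI. In the cluster led by Ltc4s and Siglecf the shares were 0.794% and 1.43% against 7.93% and 6.67%. Lymphoid-like cells, at a median of 11365 and 11151 UMIs per cell in TKO against 6994 and 6075 in neutrophil-like cells, had Rdh12 UMIs in 5.65% and 5.31% of cells, given here as the level in a class that was not higher in the comparison between classes. The Retnlg-led cluster made up 73 of 307 and 82 of 282 DKO neutrophil-like cells and 44 of 495 and 71 of 263 TKO cells, so it was not larger in TKO.

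Cpm (GRCm38 chr10:117629500-117687352, plus strand) was higher in TKO lymphoid-like cells, at 98.6 and 79.4 CPM against 21.3 and 17.2 in DKO, a 4.62-fold difference of the means. UMIs were found in 30.1% and 31.2% of TKO cells and 10.3% and 12.3% of DKO cells, and in about 1% of neutrophil-like cells (0.651% to 1.14% over the 4 libraries). The difference ran through several lymphoid-like clusters. In the cluster led by Zbtb16 and Il17a, 2 of 17 and 5 of 44 DKO cells and 37 of 67 and 39 of 78 TKO cells had a UMI. In the cluster led by Gzma, Xcl1 and Klra8, an NK-type gene set, Cpm was nearly absent in both genotypes (0, 0, 0 and 2 UMIs). Epithelial-like cells also expressed Cpm, at 30.4 and 26.6 CPM in DKO against 23 and 141 in TKO, where the genotypes overlap. Without TKO replicate 2 the epithelial-like difference changes sign, from 1.49 to -0.30 on the log2(CPM + 1) scale. Epithelial-like cells were also shallower in TKO (median 10172.5 and 8202 UMIs) than in DKO (20132 and 21763.5). At a finer clustering they split into a cluster led by Psca, Krt14 and Krt15 (median 57647 UMIs) and a shallower one (8227.5). The first held 18 and 39 DKO cells and 16 and 3 TKO cells. In the shallower cluster Cpm stood at 34.9 and 60.7 CPM in DKO against 51.4 and 162 in TKO, which overlap. In the Psca-led cluster it was lower in TKO without overlap, at 29.5 and 17.2 CPM in DKO against 2.33 and 0. The TKO values there rest on 2 and 0 UMIs. The part of depth and of make-up in the epithelial-like values was not tested.

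Gpr55 (GRCm38 chr1:85938318-85961007, minus strand) was lower in TKO in 3 classes that express it, but by different amounts. Lymphoid-like cells held 44.1 and 36.1 CPM in DKO against 5.46 and 3.02 in TKO, and neutrophil-like cells 23.3 and 24.6 against 2.58 and 2.42. Both are more than 9-fold differences of the means (9.47 and 9.58). Dendritic-like cells, where the gene is highest, held 46.9 and 85 CPM in DKO against 28.2 and 39.5 in TKO, a 1.95-fold difference of the means. Among neutrophil-like cells the Siglecf-led cluster carried the gene in DKO, in 31 of 126 and 15 of 70 cells, against 5 of 227 and 1 of 60 in TKO. The dendritic-like cluster led by Siglech held few cells (5 and 12 in DKO, 17 and 9 in TKO). Gpr55 was found in 100% and 83.3% of these cells in DKO and in 70.6% and 66.7% in TKO. In the Cd209a-led cluster the genotypes overlapped (35.5% and 62.2% against 40.3% and 39.1%). Whether the change differs between dendritic-like and other classes was not tested. In fibroblast-like cells, DKO replicate 2 held 12 of the 13 UMIs.

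Slc24a3 (GRCm38 chr2:145167754-145642166, plus strand) moved in opposite directions in 2 classes, and over all cells the genotypes overlapped (24 and 16.2 CPM in DKO, 21.4 and 34.1 in TKO). Neutrophil-like cells held 44.1 and 39.4 CPM in DKO against 5.72 and 2.42 in TKO, a 10.3-fold lower mean. Lymphoid-like cells held 24.3 and 14.4 CPM in DKO against 41.7 and 78.7 in TKO, a 3.11-fold higher mean. The neutrophil-like difference was largest in the Retnlg-led cluster, the same in which Rdh12 was high in TKO: 17 of 73 and 11 of 82 DKO cells against 3 of 44 and 1 of 71 TKO cells. The lymphoid-like difference lay mainly in the cluster led by Gzma, Xcl1 and Klra8, with 0 of 18 and 7 of 57 DKO cells against 31 of 61 and 37 of 54 TKO cells. A floor of 3 counts puts the 0 of 18 at a share of cells with a UMI of up to 16.7%. Selecting lymphoid-like cells by a UMI of the NK receptor gene Ncr1 instead gave 0 of 11 and 7 of 37 against 23 of 43 and 30 of 37. Epithelial-like (9.85 to 16 CPM) and fibroblast-like cells (8.93 to 23 CPM) overlapped, although fewer fibroblast-like cells had a UMI in TKO (19% and 20.7% against 34.5% and 41.5%). The gene was highest in the few mast-like cells, where all 2, 2, 7 and 3 cells had it.

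**Figure D3:**
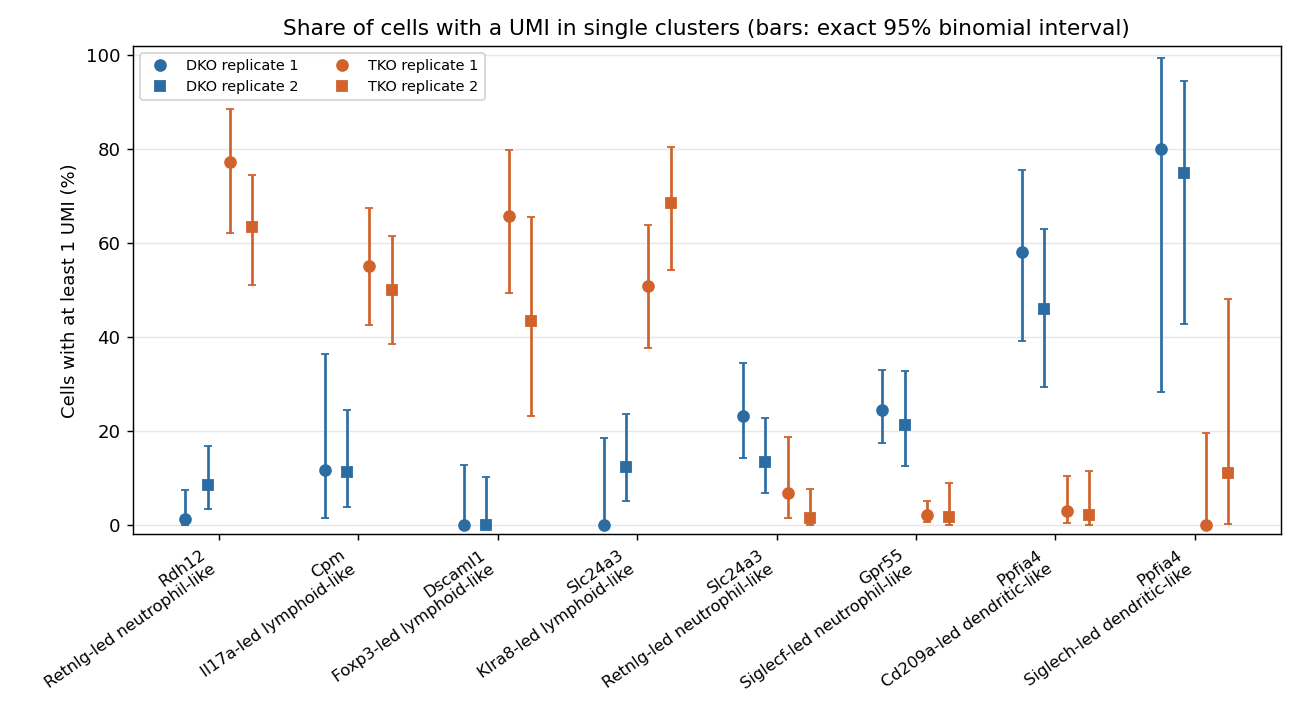
Share of cells with at least 1 UMI (vertical axis, %) for gene and cluster pairs (horizontal axis), 1 point per library with its exact 95% binomial interval, which covers counting error only. The 8 pairs were chosen after their values were seen. The points of DKO and TKO do not overlap in any of them. Some intervals do, as for Slc24a3 in the Retnlg-led and Ppfia4 in the Siglech-led cluster. Slc24a3 in TKO lies above DKO in the Klra8-led cluster and below it in the Retnlg-led cluster.

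Ppfia4 (GRCm38 chr1:134296783-134332928, minus strand) was close to on and off in dendritic-like cells and in macrophage- and monocyte-like cells. Dendritic-like cells held 38.4 and 40.9 CPM in DKO against 0.713 and 1.13 in TKO, with UMIs in 52.4% and 48.1% of DKO cells and 2.02% and 3.12% of TKO cells. Macrophage- and monocyte-like cells held 15.7 and 48.2 CPM in DKO against 0.95 and 0 in TKO, a pooled ratio of 42.1 (95% counting interval 11.1 to 356, from 58 and 2 UMIs). Median depth per dendritic-like cell was alike in all 4 libraries, between 26450.5 and 27380.5 UMIs. Within the dendritic-like class the gene was found in the Cd209a-led cluster (18 of 31 and 17 of 37 DKO cells against 2 of 67 and 1 of 46 TKO cells) and the Siglech-led cluster (4 of 5 and 9 of 12 against 0 of 17 and 1 of 9). It gave no UMI in the cluster led by Fscn1 and Ccr7 in either genotype. Lymphoid-like and neutrophil-like cells held 0 to 1.72 CPM in every library of both genotypes, too little to show a difference.

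Dscaml1 (GRCm38 chr9:45426628-45753712, plus strand) was nearly absent in DKO. All DKO cells together held 5 and 7 UMIs, and all TKO cells 452 and 183. The lymphoid-like class gave 2 and 1 UMIs in DKO and 312 and 153 in TKO, a pooled ratio of 83.4 (28.4 to 406), and the dendritic-like class gave 2 and 3 against 111 and 27. Most of the lymphoid-like UMIs, 265 and 135, lay in the cluster led by Il1rl1, Foxp3 and Itgb8, where 27 of 41 and 10 of 23 TKO cells and 0 of 27 and 0 of 34 DKO cells had one. The same floor puts those DKO shares of cells with a UMI at up to 11.1% and 8.82%. Foxp3 is the lineage factor of regulatory T cells, and the marker lists used here matched this cluster best to innate lymphoid cells, so it is called by its leading genes. Cells of the class with a Foxp3 UMI gave 0 of 24 and 0 of 35 against 28 of 46 and 9 of 23. In dendritic-like cells the gene lay mainly in the Fscn1- and Ccr7-led cluster, at 6 of 15 and 2 of 9 TKO cells and 0 of 6 and 0 of 5 DKO cells, where the floor is 50% and 60%. Few cells carried the TKO counts: without the 3 highest cells of each library 218 and 58 UMIs were left in lymphoid-like cells and 31 and 0 in dendritic-like cells. Neutrophil-like cells had it in at most 0.709% of cells.

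Spata7 (GRCm38 chr12:98628157-98669815, plus strand) was higher in TKO in the 3 classes where it could be fitted, but a few cells carried the counts. Macrophage- and monocyte-like cells held 1 and 1 UMIs in DKO and 126 and 91 in TKO, dendritic-like cells 1 and 1 against 167 and 28, and lymphoid-like cells 2 and 4 against 36 and 62. In TKO replicate 2, a single macrophage- or monocyte-like cell held 90 of the 91 UMIs, and in TKO replicate 1 a single dendritic-like cell held 103 of 167. The share of cells with a UMI was 2.78% and 3.03% against 6.49% and 4.76% in macrophage- and monocyte-like cells, 2.38% and 1.85% against 6.06% and 9.38% in dendritic-like cells and 1.72% and 1.7% against 3.49% and 4.38% in lymphoid-like cells. It was higher in TKO without overlap in each, on few cells. Without the 3 highest cells of each library, 0 and 0 against 3 and 0 UMIs were left in macrophage- and monocyte-like cells, 0 and 0 against 22 and 4 in dendritic-like cells and 0 and 1 against 10 and 13 in lymphoid-like cells. Fibroblast-like cells went the other way (5 and 32 UMIs in DKO, 5 and 2 in TKO), with 24 of the 32 in 1 cell.

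**Figure D4:**
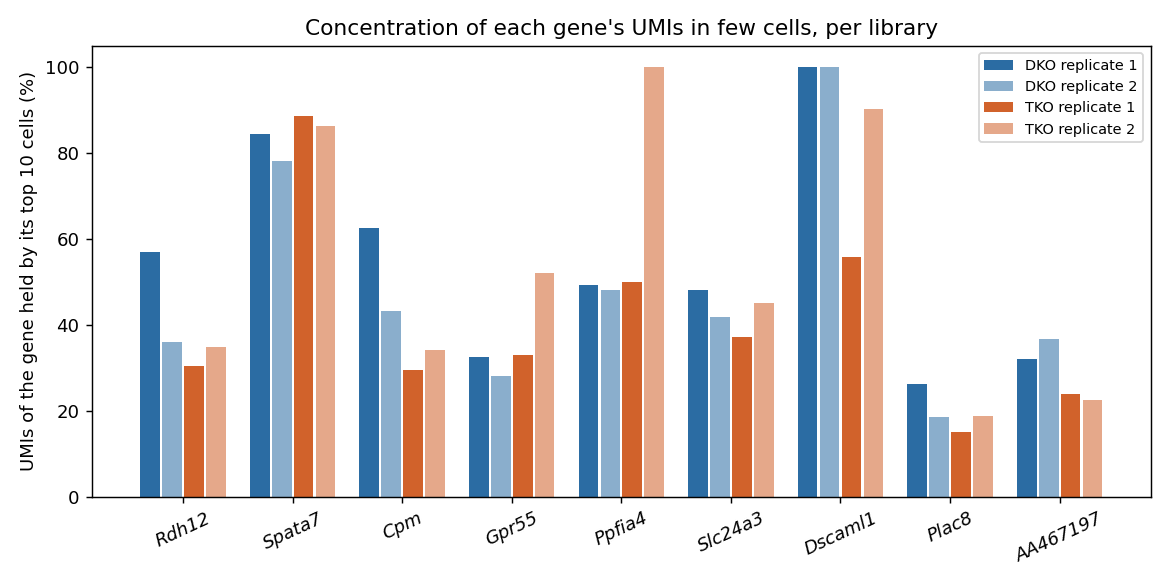
Share of each gene's UMIs (vertical axis, %) that its 10 highest cells hold, per library (bars; DKO blue, TKO orange, replicate 2 paler). Spata7 stands at 88.7% and 86.4% in TKO, while Rdh12 and Cpm stand at 29.5% to 34.8% there. Dscaml1 stands at 55.8% and 90.2% in TKO, and Dscaml1 in DKO and Ppfia4 in TKO replicate 2 reach 100% on few UMIs.

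Plac8 (GRCm38 chr5:100553725-100572245, minus strand) differed by 4-fold in macrophage- and monocyte-like cells only, at 379 and 453 CPM in DKO against 1557 and 1848 in TKO. At a finer clustering this class split into a monocyte-type and a macrophage-type cluster. The monocyte-type cluster held 18 and 17 DKO cells and 54 and 38 TKO cells, the macrophage-type cluster 17 and 15 against 17 and 4, so the make-up of the class moves with genotype. Within the monocyte-type cluster Plac8 was 1001 and 997 CPM in DKO against 2466 and 2142 in TKO, and within the macrophage-type cluster 94.8 and 140.3 against 4.4 and 0. The gene was lower in TKO lymphoid-like cells (243 and 352 against 191 and 164 CPM), and overlapped in dendritic-like cells, where it is high in all 4 libraries (1001, 1219, 1159.8 and 1236 CPM).

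AA467197 (GRCm38 chr2:122636986-122641191, plus strand) was lower in TKO in 5 of 6 classes and higher in fibroblast-like cells. Neutrophil-like cells held 988 and 664 CPM in DKO against 635 and 589 in TKO, and dendritic-like cells 1123 and 764 against 571 and 322. In fibroblast-like cells it stood at 47.3 and 35.8 against 51 and 60.6 CPM. The class with a 4-fold difference, epithelial-like cells, held 729 and 209.6 CPM in DKO against 162 and 19.9 in TKO, and 1 cell gave 494 of the 814 UMIs in DKO replicate 1 and another 691 of the 795 in DKO replicate 2. At the finer clustering 793 and 753 of these DKO UMIs, and 232 of 254 and 0 of 11 in TKO, lay in the Psca-led cluster. That cluster held 18 and 39 DKO cells and 16 and 3 TKO cells. Within it the genotypes overlapped, at 866 and 254 CPM in DKO against 271 and 0 in TKO. The shallower epithelial-like cluster was lower in TKO without overlap, at 33.3 and 22.9 CPM against 51 or more in DKO. The part of make-up in the class value was not tested. Cells with a UMI made up 28.6% and 30.7% against 26.9% and 26.9% of epithelial-like cells, so the share barely differed. In macrophage- and monocyte-like cells the share was 66.7% and 60.6% against 37.7% and 19%, but the make-up of this class moves with genotype (see Plac8). The finer macrophage-type cluster held 842 and 699.7 CPM in DKO against 551 and 717 in TKO, which overlap. Its shares overlapped too (94.1% and 73.3% against 64.7% and 75%). In the monocyte-type cluster CPM also overlapped, while the share was lower in TKO without overlap (38.9% and 47.1% against 22.2% and 13.2%). The part of make-up in the macrophage- and monocyte-like values was not tested.

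The neighbouring genes were used to ask whether the large differences extend along the chromosome. The 5 nearest tested genes on each side of each gene, 90 in all, were tested with edgeR over all cells and in each class. The shares of all genes that passed were 0% over all cells and in epithelial-like and fibroblast-like cells, 0.0447% in lymphoid-like, 0.0665% in dendritic-like, 0.039% in macrophage- and monocyte-like and 0.0113% in neutrophil-like cells. Over all cells 0 of 90 passed, as did 0 of all 15466 genes (edgeR), with 14 of the 90 (15.6%) and 1830 of all genes (11.8%) under 0.05 before adjustment. DESeq2 called 352 of all genes. The median size of change was 0.24 on the log2 scale for the neighbours and 0.23 for all genes. In neutrophil-like cells 8 of 60 neighbours (13.3%) were under 0.05 before adjustment against 4.3% of all genes, with medians of 0.31 and 0.21, and in macrophage- and monocyte-like cells 5 of 49 (10.2%) against 6.87%. In lymphoid-like, dendritic-like, epithelial-like and fibroblast-like cells the shares were 6.15%, 5.45%, 5.26% and 5.97% against 5.48%, 7.21%, 5.68% and 3.77%. In a single class 1 neighbour passed: Chil1, a chitinase-like protein 106602 bases from Ppfia4, in macrophage- and monocyte-like cells, where 3 of 7688 genes passed. Chil1 rose while Ppfia4 was lower, from 2 and 3 UMIs in DKO (1.85 and 3.52 CPM) to 220 and 56 in TKO (104 and 80 CPM), a log2 change of 5.06 ± 0.44 (edgeR adjusted p = 0.024, 0.032 or less in all 10 alternatives). Most of it lay in the monocyte-type cluster, with 2 and 0 UMIs in DKO against 217 and 54 in TKO. The number of such cells also differed, and the part of that in the class value was not tested. Rdh11, a retinol dehydrogenase 16621 bases from Rdh12, stood at 8.84 and 8.12 CPM in DKO against 18.7 and 15.7 in TKO over all cells, a log2 difference of 0.98 ± 0.20 that did not pass (edgeR adjusted p = 0.25). The neighbours with the smallest p of the other genes were Gpr65 (Spata7), Nup107 (Cpm), Gm28100 (Gpr55), Mybph (Ppfia4), Ralgapa2 (Slc24a3), Cep164 (Dscaml1), Coq2 (Plac8) and Sqor (AA467197), with edgeR adjusted p between 0.2 and 0.57, and beside Rdh12 it was Plekhh1, at 10.1 and 11.1 against 3.05 and 3.71 CPM (edgeR adjusted p = 0.2). In neutrophil-like cells Rdh11 was 8.05 and 11.3 against 50.7 and 31.5 CPM (2.01 ± 0.36, edgeR adjusted p = 0.48).

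**Figure D5:**
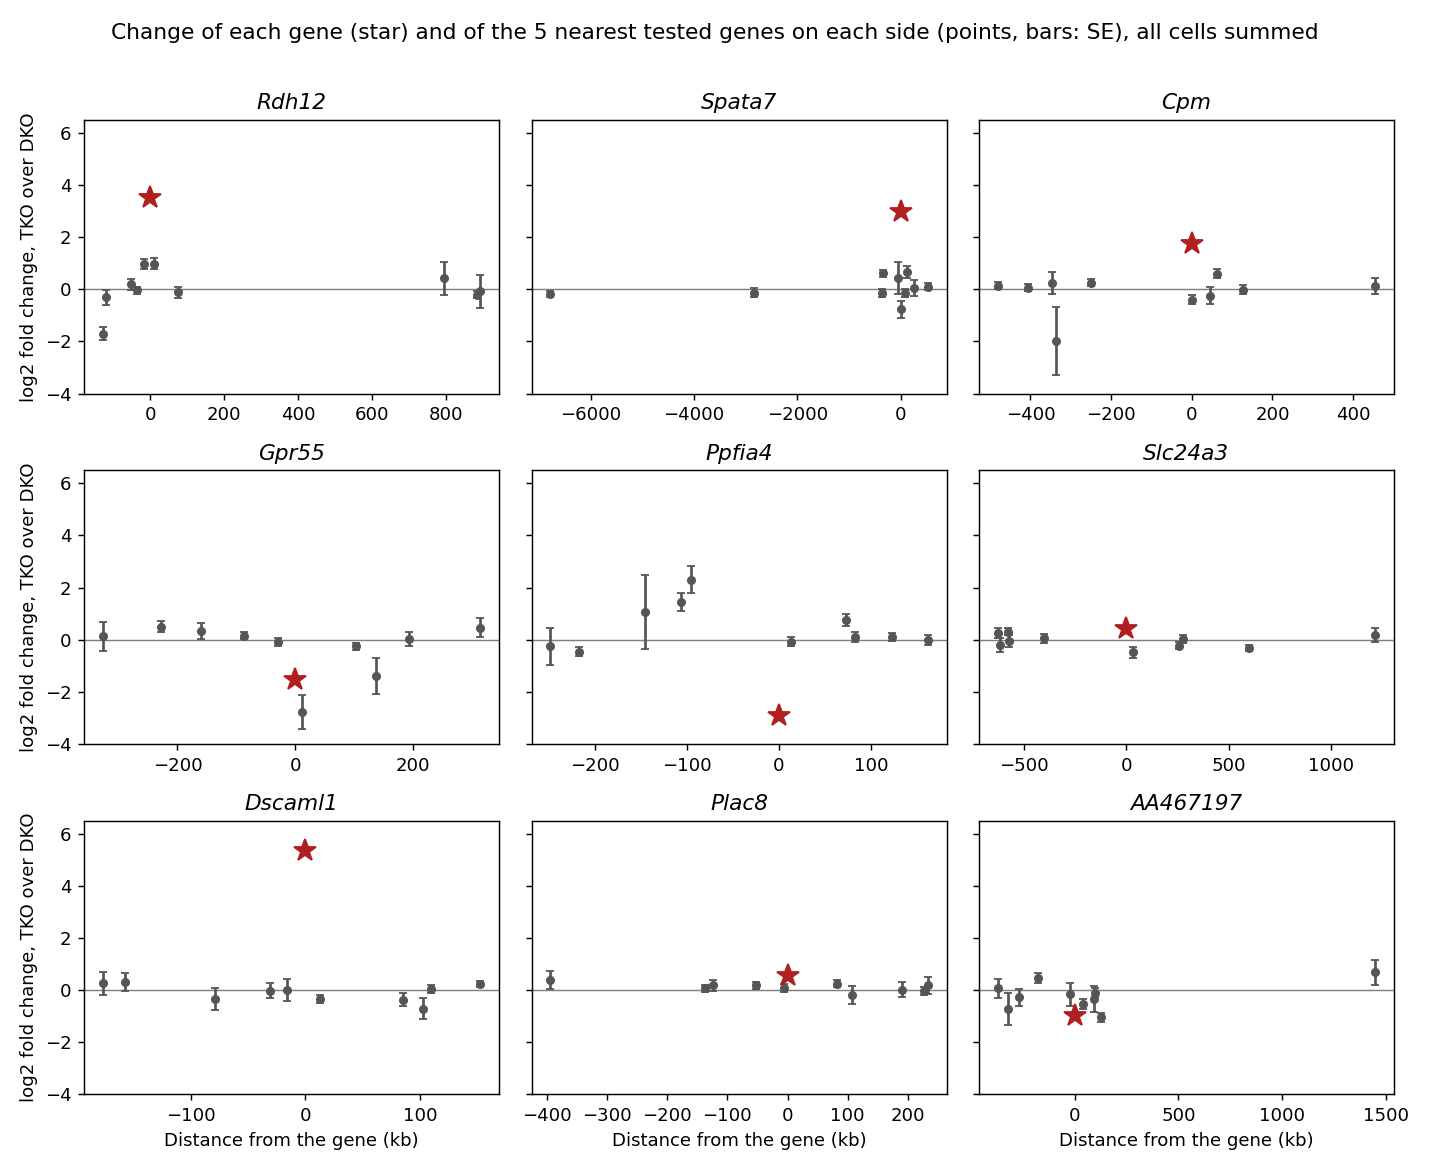
Log2 fold change, TKO over DKO, over all cells (vertical axis) of each gene (star) and of the 5 nearest tested genes on each side (points with SE), against distance from the gene in kb (horizontal axis). Of the 90 points 8 lie beyond 1 in size: Mybph, Chil1 and Chit1 above 0 beside Ppfia4, and below 0 Gm28100 and Htr2b beside Gpr55, Lyz1 beside Cpm, Plekhh1 beside Rdh12 and Sqor beside AA467197.

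Genes of the same families or pathways, 107 in 9 lists, gave 0 passing genes over all cells among 84 tested (edgeR), with 17 (20.2%) under 0.05 before adjustment, against 11.8% of all genes, and a median size of change of 0.36 against 0.23. The same shares were 13% against 5.48% in lymphoid-like, 14.3% against 7.21% in dendritic-like, 12.7% against 5.68% in epithelial-like, 3.12% against 3.77% in fibroblast-like, 13.3% against 6.87% in macrophage- and monocyte-like and 7.32% against 4.3% in neutrophil-like cells. Dscam, the closest relative of Dscaml1, had the smallest p of these over all cells (19.4 and 29 CPM in DKO, 63.6 and 49.8 in TKO, edgeR adjusted p = 0.25). By class Dscam was higher in TKO in lymphoid-like (91.1 and 96.8 against 169 and 119 CPM) and epithelial-like cells (0 and 0.791 against 12.1 and 21.7). It was lower in fibroblast-like cells (12.8 and 10.2 against 2.98 and 1.46 CPM). Dscam overlapped in dendritic-like and in macrophage- and monocyte-like cells. The smallest p in the other lists were those of Rdh11, Rpgrip1, Cpe, Gpr132, Ptprf, Slc24a1, Plac9b and Cox4i2, none below an edgeR adjusted p of 0.25. No listed gene passed in any class. Of 8565 genes tested in 4 or more classes, 21 (0.245%) had non-overlapping libraries in the same direction in every class, 4 of them at 2-fold or more throughout and 0 at 4-fold. These 4 were the predicted genes Gm7324, lower in TKO by at least 1.31 on the log2 scale in each class, and Gm12166, higher by at least 1.39, with Ctse and Ifi213, both higher. Ctse, a cathepsin, stood at 9.32 and 9.22 CPM in DKO against 27.2 and 36.3 in TKO neutrophil-like cells and at 43.4 and 37.3 against 91.8 and 93.2 in lymphoid-like cells. Others of the 21 were Sh3bgrl3 and Ms4a4b, higher in TKO, and Ocel1, Bst1, Haghl, Tnfrsf23, Spint1 and Tmed8, lower. Of the 9 genes, 3 were tested in 4 or more classes and 0 of them behaved this way.

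Over the 24 class sums of the 4 libraries, the gene whose pattern lay closest to each was found by Pearson's correlation of log2(CPM + 1), as a description, since the sums share libraries. Cpm lay closest to Rab19 (0.92), Rdh12 and Plac8 to Tctex1d4 and Slamf8 (0.86 each), AA467197 to Pgs1 (0.85) and Slc24a3 to Xrcc5 (0.83). Gpr55 lay closest to Tmem123 (0.81), Spata7 to Afmid (0.73), and Ppfia4 and Dscaml1 to Mpc1 and Nap1l3 (0.72 each). None of the 9 was the closest to another, and the strongest relation among them was negative, between Slc24a3 and Plac8 (-0.77).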

How the data were processed

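Single-cell RNA of 4 samples was measured with droplet 3′ libraries. Tumours were dissociated, red cells lysed and dying cells removed with Annexin V, per the labels' protocols. The deposited values are whole-number UMI counts per gene and cell, with no normalization, made with Cell Ranger 7.0.0 and STAR on mm10 per the submitters' processing notes. Samples were grouped by the genotype label, of which 1 item is not reported here.

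Of 3508 barcodes, 3381 passed a minimum of 200 detected genes and a mitochondrial share of no more than 20%. The 9 genes were left out of the 2000 variable genes used for clustering (scanpy 1.11.5, 30 components, 20 neighbours, Leiden resolution 1.0). A cluster took a class when at least 3 markers were raised by 1.0 (log2) and its 5 top markers averaged above 1.0, a rule set after seeing the data. No other class could have more markers among the cluster's 10 leading genes. A cluster far shallower than its libraries also needed a marker of its own class among them. A pair of clusters stayed unnamed (36, 13, 23 and 34 cells). No doublet caller was run and doublets were kept.

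UMIs were summed per library and class and tested with edgeR 4.0.16 (TMM, filterByExpr, robust quasi-likelihood test, Benjamini-Hochberg at 0.05) in R 4.3.3, tried first on simulated counts. DESeq2 1.42.0 was an alternative. CPM scales UMIs to the class sum of a library. Intervals are exact 95% and cover counting error only, and a count of 0 allows 3 counts. No library was a copy of another (chi-square divided by its degrees of freedom was 22.2 or more for each pair). The 9 genes and all gene lists were chosen with earlier results of these data known. Neighbours were taken as the 5 nearest tested genes on each side, relatives from fixed lists, and named by smallest p where none passed. Positions are from GENCODE on GRCm38.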

Additional observations from a re-analysis of the deposited data

Results flagged for a closer look

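Opposite directions between classes drew attention to 3 genes. In each pair below all libraries of one class moved one way and all of the other class the opposite way, and the difference between the classes was not tested. The value is the distance between the log2 fold changes of the classes. Libraries without overlap in a single class were found for 29.7% to 37.4% of all genes, depending on the class. The share of all genes with opposite directions is not given here.

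Slc24a3 was higher in TKO in lymphoid-like and lower in neutrophil-like cells, 5.05 apart. Plac8 was higher in TKO in macrophage- and monocyte-like and lower in lymphoid-like cells, 2.74 apart, and 1.37 apart between neutrophil-like and lymphoid-like cells. AA467197 was higher in TKO in fibroblast-like cells and lower in the other classes, by a distance of 1.90 to lymphoid-like, 1.47 to dendritic-like, 2.67 to epithelial-like, 2.01 to macrophage- and monocyte-like and 0.93 to neutrophil-like cells. All of these AA467197 distances rest on a 1.34-fold difference in fibroblast-like cells, where the shares of cells with a UMI overlapped. The Plac8 shares overlapped in neutrophil-like cells too.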

How the results depend on the processing

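The number of genes called between DKO and TKO depended on the settings, and the cause was not tested. In the order all cells, lymphoid-like, dendritic-like, epithelial-like, fibroblast-like, macrophage- and monocyte-like and neutrophil-like, edgeR called 0, 5, 6, 0, 0, 3 and 1 genes. DESeq2 called 352, 24, 29, 40, 10, 35 and 18, and edgeR without a count filter 276, 137, 248, 247, 166, 189 and 89. No label says that the replicate numbers pair the libraries. Deviations of same-numbered libraries correlated at 0.05 over all cells and at -0.06 to 0.37 in the classes, highest in neutrophil-like cells, and a replicate block gave 6, 41, 20, 0, 25, 7 and 10 genes. Leaving out 1 library gave 0 to 113 genes in all cells, 10 to 104 genes in lymphoid-like cells, 7 to 135 genes in dendritic-like cells, 0 to 90 genes in epithelial-like cells, 0 to 19 genes in fibroblast-like cells, 3 to 97 genes in macrophage- and monocyte-like cells, 9 to 68 genes in neutrophil-like cells. The highest counts came without DKO replicate 1 (all cells and fibroblast-like), TKO replicate 1 (epithelial-like) or DKO replicate 2 (the other classes), and with 1 library left in a genotype that library is assumed to vary like the others. In dendritic-like cells the finer clustering, the clustering with the 9 genes and the class per cell gave 3 each, and in macrophage- and monocyte-like cells the class per cell gave 1. By share of cells in place of CPM, Slc24a3 did not overlap in 4 classes in place of 2 and AA467197 in 3 in place of 6.

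The pairs higher by class numbered 17, and 14 to 17 without 1 library. Of 26 differences over 1 on the log2(CPM + 1) scale, 0 changed sign under another clustering or cell filter, and 2 did without a TKO library: Cpm (above) and Dscaml1 in epithelial-like cells, from 2.27 to -0.18 without TKO replicate 1. Without 1 library, Spata7 in dendritic-like cells ranged from 3.26 (without TKO replicate 1) to 5.11 (without TKO replicate 2), against 4.47, and in macrophage- and monocyte-like cells fell from 5.55 to 4.89 without TKO replicate 2. Ppfia4 in macrophage- and monocyte-like cells went from -4.48 to -3.50 without DKO replicate 2, Dscaml1 in dendritic-like cells from 3.33 to 2.52 without TKO replicate 1, and AA467197 in epithelial-like cells from -2.35 to between -4.49 (without TKO replicate 1) and -1.19 (without DKO replicate 1). Choosing cells by 1 marker gene, an alternative added after seeing the data, moved the Rdh12 difference in share from 65.4 to 49.8 percentage points. At 1000 UMIs per cell, 36 of 54 differences in share moved by more than the spread between libraries, so shares are read only beside their depth. Rdh12 in neutrophil-like cells was then found in 0.329% and 0.719% of DKO and 10.2% and 13.1% of TKO cells.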
